A study of Mus musculus with 12 samples.

Results

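The transcripts of 39 genes of the PI3K, Akt and mTOR signalling pathway were followed in mouse embryonic fibroblasts (MEF) in 2 comparisons, a mutant IDH2 against its control and 2-hydroxyglutarate (2-HG) against no 2-HG. The genes were chosen by name as the core enzymes, adaptors, inhibitors and direct targets of the pathway, and each was read from the row of the deposited tables that bears its symbol. All 39 had a row among the 43280 entries of the table with mutant IDH2, and 38 had one among the 23930 entries of the table with 2-HG. A gene was tested when its mean level reached 1 RPM (reads per 1000000 reads counted on genes) over the 6 libraries of a comparison, which left 34 components in the former, 36 in the latter and 33 in both.

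The MEF cells came from C57BL/6 embryos of day 13.5, had become immortal by serial passage, and were used in 4 groups of 3 libraries each. Cells of the group 2MUT stably expressed a cancer-associated point mutant of human IDH2 with a 3×FLAG tag from the retroviral vector pMXs-puro, Control cells carried the empty vector, and both had been selected with puromycin and were otherwise untreated. Cells of the group 2-HG(+) received 300 μM of a membrane-permeant 2-HG for 24 h, and those of the group 2-HG(-) are described as given DMSO in the sample labels and as non-treated in the study's text. The transgene was driven by a viral promoter, so the level of the mutant enzyme was not that of the cell's own gene, and nothing in the labels says that the 3 libraries of a group came from separate transductions or cultures, so the p-values measure the spread between these libraries, which may be technical.

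Mutant IDH2 makes 2-HG from 2-oxoglutarate, and 2-HG competes with it in enzymes such as the demethylases of DNA and histones, so the comparisons address which transcripts change with the mutant enzyme and which with its product given from outside. Class I PI3K, a catalytic subunit bound to a regulatory subunit, is recruited by activated receptors or by insulin receptor substrates and makes the lipid PIP3, which brings PDK1 and Akt to the membrane. Akt inhibits the TSC complex, which frees the GTPase Rheb to activate mTOR complex 1, whose targets are the S6 kinases and the 4E-binding proteins, and it also phosphorylates GSK3 and the FoxO transcription factors, which then leave the nucleus. Activity in this pathway is carried by lipids, phosphorylation and protein location, none of which were measured here, so the values below are transcript levels only.

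The libraries of Control and 2MUT held 6472439 to 7313602 reads on genes, and those of 2-HG(-) and 2-HG(+) held 14959318 to 18363768, so that 3 reads were worth 0.41 to 0.464 RPM in the former and 0.163 to 0.201 RPM in the latter. The summed level of the fibroblast markers was 14400 to 16400 RPM in Control and 13000 to 13500 RPM in 2MUT, and 21600 to 23200 RPM in 2-HG(-) and 15200 to 16300 RPM in 2-HG(+). The leukocyte markers summed to 6.47 to 13.4 RPM, nearly all of it Cd68, while Ptprc reached at most 0.142 RPM, the endothelial markers summed to at most 2.94 RPM and the epithelial ones to at most 0.6 RPM. The fibroblast sums were thus lower without overlap in 2MUT than in Control and in 2-HG(+) than in 2-HG(-). The single fibroblast markers did not all go with the sum. Of 8 tested, 6 fell in 2MUT, the furthest Col3a1 (log2 fold change -2.33), Thy1 (-1.71) and Vim (-1.29), and Fn1 rose (0.43, adjusted p = 0.011), and with 2-HG 4 fell and Thy1 rose (0.71, adjusted p = 0.014). The leukocyte sums were 6.98 to 12.4 RPM in Control and 6.47 to 6.95 RPM in 2MUT, and 11.1 to 13.4 RPM in 2-HG(-) and 7.8 to 9.67 RPM in 2-HG(+), and the part of these markers in the results below was not tested. Mouse Idh2 was at 77.3 ± 5.54 RPM in Control and 49.6 ± 6.39 RPM in 2MUT (mean ± SD, n = 3), and whether the mouse primers also read the human transgene is not given in the sources used here. As these are bulk samples, fewer cells with a transcript and less transcript per cell cannot be told apart.

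In 2MUT cells, 7 of the 34 components tested rose and 0 fell (20.6% called, against 16.5% higher and 17.3% lower among all 11065 genes tested, with limma and a Benjamini-Hochberg adjusted p under 0.05). The median log2 fold change of the components was 0.207, beside 0.008 for all genes. Of their 34 values 24 were positive, beside 50.8% of those of all genes. With 2-HG, 4 of the 36 components tested rose and 8 fell (33.3% called, 11.1% higher and 22.2% lower, against 16.1% and 16.7% of all 10384 genes tested). Their median was -0.133, beside -0.021 for all genes, and 12 of the 36 values were positive, beside 47.7% of those of all genes. The share of components called was thus below that of all genes in 2MUT (33.8% of all genes) and near it with 2-HG (32.8%), and the direction of the calls was upward in the former and mostly downward in the latter. The count of 0 that fell in 2MUT compares with 1, Pik3r2, at an unadjusted p under 0.05, 0 with edgeR and 1, again Pik3r2, with DESeq2. Without 2MUT replicate 3 only 2 components rose in 2MUT. Without 2-HG(-) replicate 3, 2 rose and 5 fell with 2-HG, and without 2-HG(+) replicate 2 also 5 fell.

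**Figure D1:**
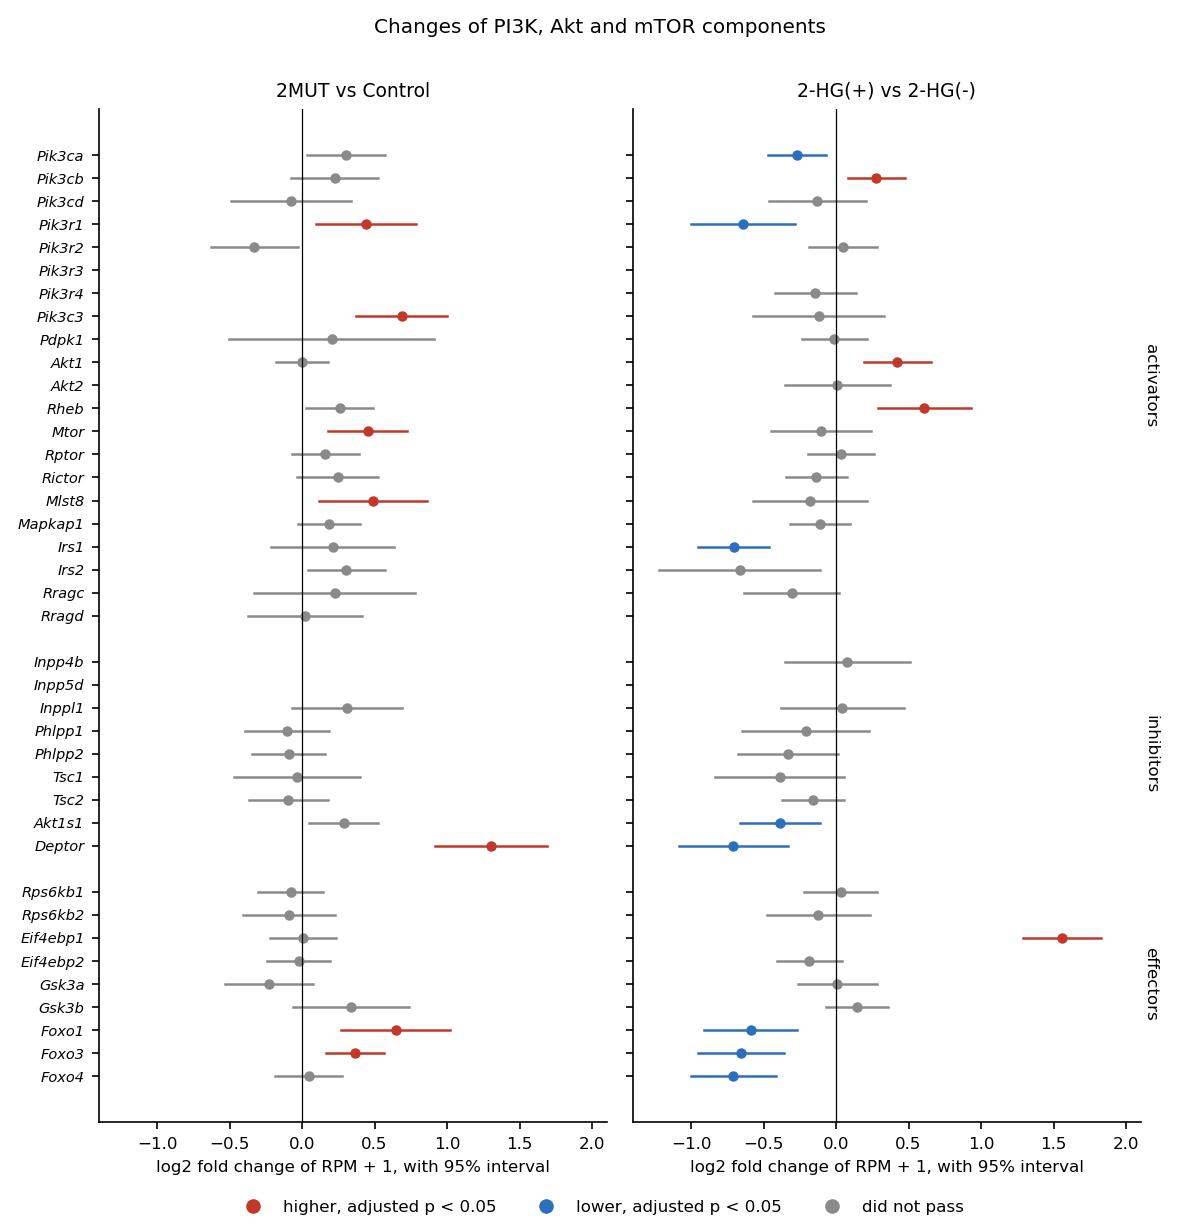
The log2 fold change of RPM + 1 of each component tested is drawn as a point with its 95% interval, for 2MUT against Control on the left and 2-HG(+) against 2-HG(-) on the right, with activators, inhibitors and effectors apart. Deptor at 1.30 lies farthest to the right in 2MUT and Eif4ebp1 at 1.56 with 2-HG, and the 3 FoxO genes lie at or right of 0 on the left and left of 0 on the right.

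Among the activators, 4 of 18 rose in 2MUT and 0 fell, with a median log2 fold change of 0.225 and 16 positive values, whereas with 2-HG 3 of 19 rose and 3 fell, with a median of -0.121. Among the inhibitors, 1 of 7 rose in 2MUT with a median of -0.035, and with 2-HG 2 of 8 fell and 0 rose with a median of -0.272. Among the effectors, 2 of 9 rose in 2MUT with a median of 0.005, and with 2-HG 1 of 9 rose and 3 fell with a median of -0.124. In 2MUT the 4 activators that rose became 2 without 2MUT replicate 1 or Control replicate 3 and 1 without 2MUT replicate 3, the 2 effectors became 0 without 2MUT replicate 3, and the 1 inhibitor became 2 without Control replicate 3. Without Control replicate 1, 1 activator fell in 2MUT. With 2-HG, 1 activator rose and 1 fell without 2-HG(-) replicate 3, and 1 inhibitor fell without replicate 1 or 2 of 2-HG(+) or replicate 1 or 3 of 2-HG(-). These counts are to be read against all genes tested, of which 16.5% rose and 17.3% fell in 2MUT, and 16.1% rose and 16.7% fell with 2-HG. The 1 of 7 inhibitors that rose in 2MUT lay near these shares. So did the 3 of 19 activators that rose and the 3 that fell with 2-HG. The other counts lay above or below them, on few genes in each role. No role was compared with another or with all genes by a test. With 2-HG no inhibitor rose at an unadjusted p under 0.05 either, nor with edgeR or DESeq2 (0 each).

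The 4 components called in both comparisons were Deptor, Pik3r1, Foxo1 and Foxo3, each of which rose in 2MUT and fell with 2-HG. Without 2MUT replicate 3 only Deptor was called in both, since the 2MUT calls of the other 3 were then lost, and Pik3r1 was not so called without 2MUT replicate 1, Control replicate 1 or 3 or 2-HG(-) replicate 3, nor Foxo1 without 2-HG(+) replicate 2. Without Control replicate 1, Pik3ca was so called in its place. The bases just before the start sites of Pik3r1, Foxo1 and Foxo3 are shown because each of these genes rose in 2MUT and fell with 2-HG, and Deptor is named only. They are the RefSeq promoter windows on GRCm38.p6, cut to the 250 bases before the start, written 5′ to 3′ on the gene's strand with each CpG in capitals. Pik3r1 has 2 annotated starts, with windows at chr13:101768218-101768467 and chr13:101692631-101692880 on the minus strand, the window of Foxo1 is chr3:52268087-52268336 on the plus strand, and the stretch of Foxo3 shown, chr10:42276756-42276945 on the minus strand, is 190 bases long because the rest lies in an annotated exon.
Pik3r1, upstream start: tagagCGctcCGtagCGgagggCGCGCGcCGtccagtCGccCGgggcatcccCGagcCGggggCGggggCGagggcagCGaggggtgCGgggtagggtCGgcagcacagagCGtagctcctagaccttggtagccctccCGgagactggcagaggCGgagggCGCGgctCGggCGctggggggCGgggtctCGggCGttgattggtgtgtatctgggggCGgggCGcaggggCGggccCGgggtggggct
Pik3r1, downstream start: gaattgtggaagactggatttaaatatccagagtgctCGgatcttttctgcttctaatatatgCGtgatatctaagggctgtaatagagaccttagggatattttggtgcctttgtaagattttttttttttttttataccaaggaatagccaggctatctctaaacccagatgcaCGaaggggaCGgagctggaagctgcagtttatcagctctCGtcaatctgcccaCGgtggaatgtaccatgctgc
Foxo1: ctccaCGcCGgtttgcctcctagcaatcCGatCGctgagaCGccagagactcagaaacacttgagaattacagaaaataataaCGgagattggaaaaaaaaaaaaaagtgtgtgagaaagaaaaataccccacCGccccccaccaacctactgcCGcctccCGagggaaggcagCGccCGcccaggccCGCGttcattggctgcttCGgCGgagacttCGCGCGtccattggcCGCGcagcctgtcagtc
Foxo3: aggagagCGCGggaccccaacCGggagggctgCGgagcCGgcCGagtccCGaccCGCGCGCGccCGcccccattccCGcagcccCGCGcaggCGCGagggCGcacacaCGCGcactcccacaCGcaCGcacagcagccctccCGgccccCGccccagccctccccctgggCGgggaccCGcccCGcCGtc
The window of the upstream Pik3r1 start held 30 CpG and 76.4% G and C, that of the other start 6 CpG and 42.4%, that of Foxo1 20 CpG and 56.0%, and the full 250 bases of Foxo3 31 CpG and 76.4%, beside a median of 6 CpG and 52.4% over 32851 windows. Neither the core letters bound by FoxO factors, TGTTTAC, nor the composite letters bound by ATF4 with its partners, TGATGNAA, were found in these 4 windows on either strand. Of all windows, 3.17% held the former and 3.45% the latter. Among the 46 windows of 34 components, 3 windows, of Akt1 and Mapkap1, held the FoxO core and 2, of Akt2 and Pik3cd, the composite letters. A match or its absence is a description of these bases, and nothing was read from it about either factor.

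In 2MUT cells, the class I PI3K gene that rose was Pik3r1, which encodes the regulatory subunit p85α. It was at 68.7, 74.5 and 55.4 RPM in Control and at 101, 71.9 and 98.7 RPM in 2MUT, so that 1 library of 2MUT lay within the range of Control. The log2 fold change was 0.44 (SE 0.16, adjusted p = 0.048), and the call was lost without either of the other 2MUT libraries (adjusted p = 0.17 without 2MUT replicate 1 and 0.16 without 2MUT replicate 3) and without Control replicate 1 (0.075) or 3 (0.11). In all it was lost under 11 of 18 alternative settings, among them another added value, both other filters and no mean-variance trend. The catalytic subunit genes Pik3ca (log2 fold change 0.30, adjusted p = 0.080), Pik3cb (0.22, adjusted p = 0.23) and Pik3cd (-0.08, adjusted p = 0.78) did not pass, nor did the regulatory subunit gene Pik3r2 (-0.33, adjusted p = 0.086). Without Control replicate 1, Pik3ca passed at 0.38 (adjusted p = 0.045) and Pik3r2 at -0.49 (adjusted p = 0.0075).

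Pik3c3, which encodes the class III enzyme Vps34 that makes PI3P on endosomes and autophagosomes, rose more than any class I gene. Its levels were 21.8, 20.4 and 20.1 RPM in Control and 31.5, 39.4 and 31.6 RPM in 2MUT. The groups stood 9.7 RPM apart, and the log2 fold change was 0.69 (95% interval 0.38 to 1.00, adjusted p = 0.0035). The call was kept under each of 18 alternative settings, with values of 0.59 to 0.74. Its partner gene Pik3r4, which encodes the Vps15 subunit, was at 0 to 1.14 RPM and was not tested.

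Neither between PI3K and mTOR nor among the adaptors upstream of PI3K did a component tested in 2MUT pass. Akt1, which encodes a widely expressed Akt kinase, was at 553, 532 and 550 RPM in Control and 570, 527 and 542 RPM in 2MUT. The ranges overlapped fully, and the log2 fold change of 0.002 had a 95% interval of -0.177 to 0.181. Akt2 was at 0.592, 0.855 and 0.547 RPM in Control and 0.309, 0.146 and 0.138 RPM in 2MUT, or 1 to 6 reads a library, which is too low for the test. Rheb (0.26, adjusted p = 0.079) and the adaptor gene Irs2 (0.31, adjusted p = 0.074) did not pass, while Rheb passed without Control replicate 1 (0.37, adjusted p = 0.011). Pdpk1, which encodes PDK1, was at 1.91 to 6.49 RPM with 14 to 42 reads, and the interval of its log2 fold change, -0.50 to 0.91, was wide. The genes of the TSC complex, Tsc1 (-0.04, interval -0.47 to 0.40) and Tsc2 (-0.10, interval -0.37 to 0.18), and the Akt phosphatase genes Phlpp1 (-0.10) and Phlpp2 (-0.09) did not pass.

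The subunits of the mTOR complexes had positive values in 2MUT throughout, from 0.16 to 0.49 over 5 genes, of which 2 passed. Mtor, which encodes the kinase of both complexes, was at 57.6, 72.2 and 74.2 RPM in Control and 91.6, 87.7 and 99.5 RPM in 2MUT. Each 2MUT library lay above each Control library, and the log2 fold change was 0.45 (SE 0.12, adjusted p = 0.016), with an adjusted p of 0.069 without 2MUT replicate 3. Mlst8, a subunit of both complexes, was at 22.6, 30.9 and 20.8 RPM in Control and 32.6, 32.4 and 39.5 RPM in 2MUT. These groups were only 1.5 RPM apart, and the rise of 0.49 (SE 0.17, adjusted p = 0.043) was lost without any of the 2MUT libraries (0.074, 0.074 and 0.16) and without Control replicate 1 (0.11) or 3 (0.10). Rptor, the defining subunit of complex 1 (0.16, adjusted p = 0.26), Rictor, that of complex 2 (0.25, adjusted p = 0.16), and Mapkap1, another subunit of complex 2 (0.19, adjusted p = 0.17), did not pass.

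The largest change of any component in 2MUT was in Deptor, which encodes a protein that binds mTOR and inhibits both complexes. The gene lies at chr15:55112317-55259271 on the plus strand of GRCm38 in the GENCODE M21 annotation. It was at 20.4, 18.8 and 31.2 RPM in Control and 59.6, 55.2 and 59.2 RPM in 2MUT. The lowest 2MUT library was 24.0 RPM above the highest Control library, and the level was 2.47-fold higher (log2 fold change 1.30, SE 0.18, adjusted p = 0.00025). The call was kept under each of 18 alternative settings, with values of 1.17 to 1.52. Akt1s1 encodes PRAS40, the other component that inhibits complex 1 itself. It was at 60.7 to 65.6 RPM in Control and 73.5 to 83.6 RPM in 2MUT, without overlap, and did not pass (0.29, adjusted p = 0.062).

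**Figure D2:**
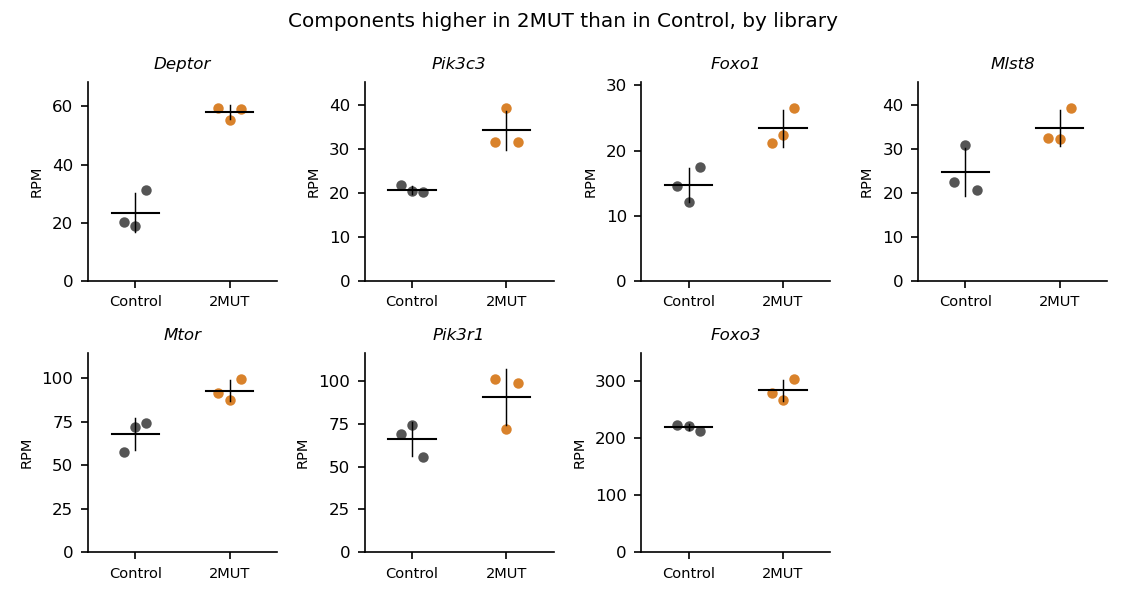
The RPM of each of the 3 Control and 3 2MUT libraries is drawn as a point for the 7 components that rose, each with its own axis, with a bar at the mean and an error bar of 1 SD. The groups are apart for each gene except Pik3r1, where the second 2MUT library, at 71.9 RPM, lies within the Control range.

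Among the effectors, the FoxO genes Foxo1 and Foxo3 were those that rose in 2MUT. Foxo1 was at 14.5, 12.1 and 17.4 RPM in Control and 21.2, 22.4 and 26.6 RPM in 2MUT. Foxo3 was at 223, 221 and 212 RPM in Control and 278, 266 and 303 RPM in 2MUT. For both genes every 2MUT library exceeded every Control library, and the log2 fold changes were 0.65 for Foxo1 (SE 0.17, adjusted p = 0.014) and 0.36 for Foxo3 (SE 0.091, adjusted p = 0.0099). Without 2MUT replicate 3 these became 0.55 (adjusted p = 0.064) and 0.31 (adjusted p = 0.053). Foxo4 had a value of 0.04 (interval -0.19 to 0.28). The targets of mTOR complex 1 did not pass, with Eif4ebp1, a repressor of cap-dependent translation, at 311 ± 37.1 RPM in Control and at almost the same mean with an SD of 16.0 in 2MUT (log2 fold change 0.005, interval -0.22 to 0.23), Eif4ebp2 at -0.03, and the S6 kinase genes Rps6kb1 at -0.08 and Rps6kb2 at -0.09. Gsk3a (-0.23, adjusted p = 0.23) and Gsk3b (0.34, adjusted p = 0.18) did not pass either.

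Of the 34 components, 11 had groups that did not overlap with 2MUT higher and 0 with 2MUT lower, beside 23.5% and 24.0% of all genes tested. These were the 6 called genes other than Pik3r1, together with Pik3ca, Akt1s1, Mapkap1, Irs2 and Gsk3b. With 2-HG, 4 of 36 components had no overlap with 2-HG(+) higher and 11 with 2-HG(+) lower, beside 22.2% and 24.1% of all genes. The latter 11 were the 8 that fell and Tsc2, Rictor and Eif4ebp2.

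With 2-HG, the class I PI3K genes moved in opposite directions. The regulatory gene Pik3r1 was at 338, 507 and 445 RPM in 2-HG(-) and 315, 272 and 233 RPM in 2-HG(+). Each treated library lay below each untreated one, although the lowest untreated and the highest treated library were only 23.0 RPM apart, and the log2 fold change was -0.64 (SE 0.16, adjusted p = 0.013, and 0.054 without 2-HG(-) replicate 3). The catalytic subunit gene Pik3cb was at 101, 106 and 102 RPM in 2-HG(-) and 121, 130 and 125 RPM in 2-HG(+), whereas Pik3ca was at 118, 120 and 114 RPM and 100, 94.5 and 96.8 RPM. These were small changes with little spread, 0.28 for Pik3cb (SE 0.088, adjusted p = 0.038) and -0.27 for Pik3ca (SE 0.088, adjusted p = 0.040). Both calls were lost without any of 5 libraries, namely 2-HG(+) replicates 2 and 3 and each of the 2-HG(-) replicates, with adjusted p up to 0.15 in either gene, and that of Pik3ca also with edgeR (0.060) and DESeq2 (0.069). Pik3cd (-0.13), Pik3r2 (0.05), Pik3c3 (-0.12, interval -0.57 to 0.33) and Pik3r4 (-0.14) did not pass.

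Upstream of PI3K, Irs1, which encodes the adaptor that links the insulin and IGF-1 receptors to PI3K, fell with 2-HG. It was at 150, 132 and 129 RPM in 2-HG(-) and 74.7, 84.7 and 91.5 RPM in 2-HG(+). The groups were far apart, with a log2 fold change of -0.71 (SE 0.11, adjusted p = 0.0011), and the call was kept under each of 18 settings, with values of -0.77 to -0.63. Irs2 was at 9.75, 4.48 and 7.45 RPM and at 2.98, 4.75 and 4.44 RPM, with 45 to 179 reads a library. Its groups overlapped and it did not pass (-0.67, adjusted p = 0.066), but it passed with edgeR (-0.83, adjusted p = 0.044), with DESeq2 (-0.82, adjusted p = 0.017) and without 2-HG(-) replicate 2 (-0.93, adjusted p = 0.011).

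The kinase and GTPase that link PI3K to mTOR rose. Akt1 was at 383, 428 and 370 RPM in 2-HG(-) and 577, 522 and 487 RPM in 2-HG(+), a 1.34-fold rise (log2 fold change 0.42, SE 0.10, adjusted p = 0.012). Rheb was at 323, 401 and 337 RPM and at 630, 561 and 439 RPM, a 1.53-fold rise (0.61, SE 0.14, adjusted p = 0.0098). For both genes the treated libraries lay above the untreated ones, with the third treated library the lowest in each. The call of Akt1 was lost without 2-HG(-) replicate 3 (0.38, adjusted p = 0.059). Akt2 was at 33.5, 26.5 and 31.0 RPM in 2-HG(-) and 23.9, 32.8 and 35.7 RPM in 2-HG(+), with overlap and a log2 fold change of 0.01 (interval -0.35 to 0.37). Pdpk1 was at 45.3 to 50.0 RPM throughout (-0.01, interval -0.24 to 0.21). Tsc1 (-0.39, adjusted p = 0.16), Tsc2 (-0.16, adjusted p = 0.24), Phlpp1 (-0.21) and Phlpp2 (-0.33, adjusted p = 0.13) had negative values that did not pass, and Tsc1 passed without 2-HG(-) replicate 2 (-0.57, adjusted p = 0.046).

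Deptor and Akt1s1, the components that inhibit the mTOR complexes themselves, fell with 2-HG, while no subunit passed. Deptor was at 29.6, 22.1 and 26.3 RPM in 2-HG(-) and 12.5, 15.7 and 18.7 RPM in 2-HG(+). Akt1s1 was at 70.6, 54.1 and 60 RPM and at 45.8, 43.2 and 51.0 RPM. In neither gene did the groups overlap, and the log2 fold changes were -0.71 for Deptor (SE 0.17, adjusted p = 0.010) and -0.39 for Akt1s1 (SE 0.12, adjusted p = 0.039). The call of Akt1s1 was lost without 2-HG(+) replicate 1 (adjusted p = 0.067) or 2 (0.13) and without 2-HG(-) replicate 1 (0.13) or 3 (0.094). The subunit genes lay between -0.18 and 0.03, with Mtor at -0.10 (interval -0.45 to 0.24), Rptor at 0.03 (interval -0.19 to 0.26) and Rictor at -0.14 (interval -0.35 to 0.07). Rragc, a Rag GTPase that brings mTOR complex 1 to the lysosome, had a value of -0.31 (adjusted p = 0.14) and passed without 2-HG(+) replicate 3 (-0.46, adjusted p = 0.030).

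The largest change of any component with 2-HG was in Eif4ebp1, which lies at chr8:27260329-27276674 on the plus strand of GRCm38. It was at 96.4, 71.6 and 81.4 RPM in 2-HG(-) and 239, 233 and 264 RPM in 2-HG(+). The lowest treated library was 137 RPM above the highest untreated one, and the level was 2.95-fold higher (log2 fold change 1.56, SE 0.12, adjusted p = 1.9e-05), with values of 1.46 to 1.67 and the call kept under each of 18 settings. Its paralogue Eif4ebp2 had a value of -0.18 (adjusted p = 0.19), with all treated libraries, at 92.4 to 96.0 RPM, below the untreated ones, at 98.8 to 118 RPM.

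All 3 FoxO genes in the list fell with 2-HG. Foxo1 was at 32.3, 28.7 and 24.5 RPM in 2-HG(-) and 18.8, 16.2 and 20.8 RPM in 2-HG(+). Foxo3 was at 145, 100 and 126 RPM and at 80.2, 76.2 and 75.7 RPM. Foxo4 was at 35.6, 31.5 and 30.3 RPM and at 16.8, 20.5 and 21.2 RPM. Every treated library was below every untreated one in each of the genes. The log2 fold changes were close to each other, -0.59 for Foxo1 (SE 0.14, adjusted p = 0.012), -0.65 for Foxo3 (SE 0.13, adjusted p = 0.0047) and -0.71 for Foxo4 (SE 0.13, adjusted p = 0.0028). Without 2-HG(+) replicate 2 the value of Foxo1 was -0.50 with an adjusted p of 0.050, and its call was lost. The S6 kinase genes (Rps6kb1 0.03, Rps6kb2 -0.12) and the GSK3 genes (Gsk3a 0.01, Gsk3b 0.14) did not pass.

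**Figure D3:**
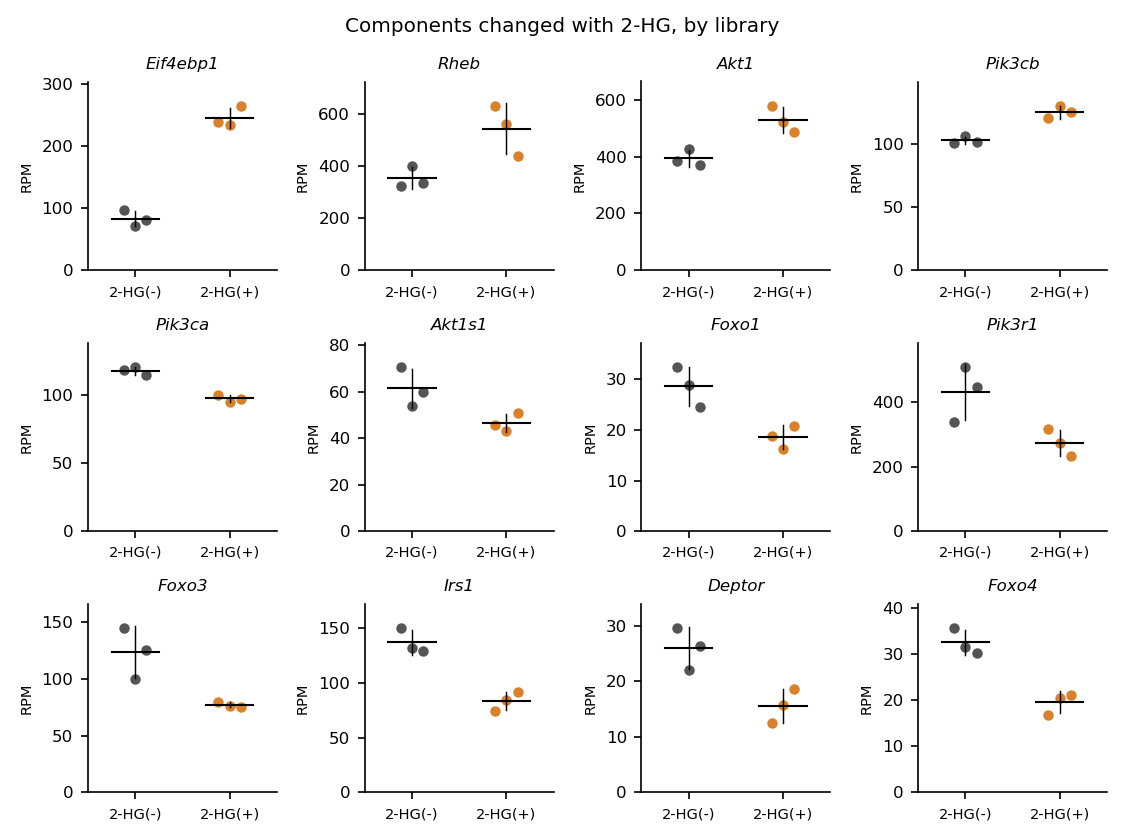
The RPM of each of the 3 2-HG(-) and 3 2-HG(+) libraries is drawn as a point for the 12 components that rose or fell, each with its own axis, with a bar at the mean and an error bar of 1 SD. Eif4ebp1, Rheb, Akt1 and Pik3cb are higher and the other 8 lower in 2-HG(+), and no group overlaps the other.

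The changes in the 2 comparisons were then set against each other in a test of the difference over the 12 libraries. Each change stays within its own table and no library is shared, while the spread of each gene was pooled over both tables. The experiments also differed in vector, selection, length of exposure and depth. None of these can be told apart from the mutant and the metabolite here. Of the 33 components, 13 differed, the same share as the 39.4% of all 9594 genes tested in both, so the number of differences was not particular to the pathway. The value in 2MUT was above that with 2-HG in 11 of them, and below it in Akt1 and Eif4ebp1, beside 19.9% of all genes above and 19.5% below. Of all genes tested in both, 4.2% rose in 2MUT and fell with 2-HG, and 4 of the 33 components did so, or 1 without 2MUT replicate 3. No component was called in the same direction in both, where 1.5% of all genes rose and 3.06% fell in both, and 18 components were called in neither, as were 47.1% of all genes.

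The widest difference was in Deptor, 2.01 on the log2 scale (SE 0.26, adjusted p = 4.7e-05), followed by Eif4ebp1 at -1.55 (SE 0.17, adjusted p = 8.3e-06). The FoxO genes differed in each case, Foxo1 by 1.24 (adjusted p = 0.00071), Foxo3 by 1.02 (adjusted p = 0.00029) and Foxo4 by 0.75 (adjusted p = 0.0023). Within class I PI3K, Pik3r1 differed by 1.08 (adjusted p = 0.0034) and Pik3ca by 0.57 (adjusted p = 0.0086), and upstream of it Irs1 differed by 0.92 (adjusted p = 0.0035). Akt1s1 differed by 0.67 (adjusted p = 0.0048). These 9 differences were kept under each of the 21 alternative settings run for the difference, which did not include edgeR, DESeq2 or the unmoderated test. The difference of Akt1 was -0.42 (adjusted p = 0.018, and 0.050 without 2-HG(-) replicate 3), and that of Irs2 was 0.97 (adjusted p = 0.020, and 0.051 without 2MUT replicate 2 or 2-HG(-) replicate 1). That of Pik3c3 was 0.81 (adjusted p = 0.024, and 0.055 to 0.067 without 2MUT replicate 2, 2-HG(-) replicate 2 or 3, or 2-HG(+) replicate 1). That of Mtor was 0.56 (adjusted p = 0.047) and was lost under 13 of 21 settings, among them the omission of any of 8 libraries, with an adjusted p of up to 0.12.

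**Figure D4:**
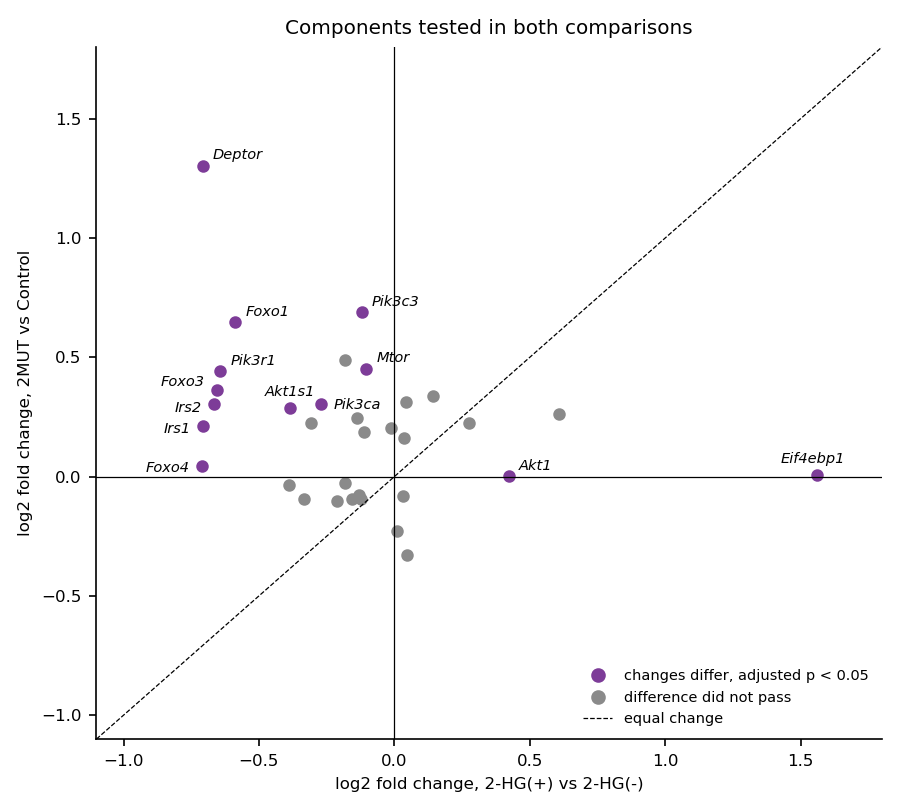
Each point is 1 of the 33 components, with its log2 fold change with 2-HG on the horizontal axis and in 2MUT on the vertical axis, and purple points passed the test of the difference. Deptor, Foxo1, Foxo3 and Pik3r1 lie in the upper left, whereas Akt1 and Eif4ebp1 lie to the right near 0 on the vertical axis.

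Components whose difference did not pass include Rheb (0.26 in 2MUT and 0.61 with 2-HG, difference -0.35, SE 0.19), so its call with 2-HG alone does not show that it behaved otherwise in 2MUT, although the difference passed without 2-HG(+) replicate 3 (-0.49, adjusted p = 0.037). Pik3cb was also called with 2-HG alone, and its difference did not pass (0.22 and 0.28, difference -0.05, SE 0.15). Mlst8 was called in 2MUT alone (0.49 and -0.18), and its difference of 0.67 (SE 0.26, adjusted p = 0.053) did not pass but passed under 6 of 21 alternative settings. Rptor (0.16 and 0.03, difference 0.13, SE 0.14) and Rps6kb1 (-0.08 and 0.03, difference -0.11, SE 0.15) had small values in both.

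Genes around the core were described with 5 lists of 100 further genes in all, of which 82 were tested in each comparison. In 2MUT 18 rose and 12 fell (22.0% and 14.6%, median log2 fold change 0.077), and with 2-HG 9 rose and 22 fell (11.0% and 26.8%, median -0.142). Of all genes tested, 16.5% rose and 17.3% fell in 2MUT, and 16.1% rose and 16.7% fell with 2-HG, against which the counts of each list below are to be read. In 2MUT the number that rose was 10 without 2MUT replicate 2 and 11 without 2MUT replicate 3, and the number that fell was 7 without 2MUT replicate 1 and 6 without 2MUT replicate 2. Of the amino acid and stress inputs to mTOR complex 1, 8 of 24 rose and 4 fell in 2MUT, and 3 of 26 rose and 4 fell with 2-HG. Of the other phosphoinositide kinases and phosphatases, 2 of 15 rose and 0 fell in 2MUT, and 1 of 15 rose and 4 fell with 2-HG. Of the modulators and substrates of Akt, 1 of 15 rose and 3 fell in 2MUT, and 3 of 14 rose and 3 fell with 2-HG. Of the translation and growth outputs of mTOR complex 1, 3 of 14 rose and 2 fell in 2MUT, and 1 of 14 rose and 4 fell with 2-HG.

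Several of these counts by list moved when a single library was left out. In 2MUT the 8 inputs that rose became 4 without 2MUT replicate 1 or 2 and 5 without 2MUT replicate 3 or Control replicate 1, and the 4 that fell became 2 without 2MUT replicate 1 and 1 without 2MUT replicate 2. The 2 phosphoinositide genes that rose became 1 without 2MUT replicate 2 or 3 or Control replicate 3. The 1 modulator of Akt that rose became 2 without Control replicate 1, and the 3 that fell became 1 without 2MUT replicate 3 or Control replicate 2. The 3 outputs that rose became 1 without 2MUT replicate 2 or Control replicate 2 and 0 without 2MUT replicate 3, and the 2 that fell became 1 without 2MUT replicate 1 or 2 or Control replicate 1 or 3. With 2-HG the 1 phosphoinositide gene that rose became 0 without replicate 1 or 2 of 2-HG(+) or replicate 1 or 3 of 2-HG(-). The 3 modulators of Akt that fell became 1 without 2-HG(+) replicate 2 or 2-HG(-) replicate 2, and the 1 output that rose became 2 without 2-HG(+) replicate 1 or 2-HG(-) replicate 2.

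The sestrins, stress-induced proteins that restrain mTOR complex 1 through its amino acid sensors, moved in different ways. Sesn2, which senses leucine, was at 11.5, 19.9 and 22.3 RPM in Control and 35.2, 44.4 and 43.8 RPM in 2MUT, a log2 fold change of 1.196 (adjusted p = 0.0016) that was the largest rise among the listed genes in 2MUT. With 2-HG it was at 10.2, 6.55 and 8.65 RPM and at 13.5, 18.8 and 17.6 RPM, a rise of 0.91 (adjusted p = 0.0045). Its rises did not differ by the test (difference 0.29, SE 0.32). Sesn1 and Sesn3 rose in 2MUT by 0.43 (adjusted p = 0.040) and 0.66 (adjusted p = 0.020) and fell with 2-HG by 0.94 (adjusted p = 0.00093) and 0.77 (adjusted p = 0.0061), with differences of 1.38 (adjusted p = 0.00016) and 1.43 (adjusted p = 0.00087). The rise of Sesn1 in 2MUT was lost without any 2MUT library (adjusted p = 0.093 to 0.11) and without Control replicate 1 (0.12) or 3 (0.062), and that of Sesn3 without 2MUT replicate 1 (0.055) or 2 (0.076) or Control replicate 1 (0.054). These 2 genes were named after their values were seen.

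Among the other listed genes, Lpin1, a regulator of lipid synthesis controlled by mTOR complex 1, fell in 2MUT from 171, 156 and 155 RPM to 96.6, 95.3 and 98.9 RPM (-0.72, adjusted p = 0.00024). Prr5, a subunit of mTOR complex 2, fell in 2MUT from 6.07, 12.0 and 7.93 RPM to 5.10, 4.68 and 4.95 RPM (-0.66, adjusted p = 0.048), a call that was lost without any of 5 libraries, the exception being Control replicate 1, with an adjusted p of up to 0.17. With 2-HG the largest rise was in Trib3, a pseudokinase that binds Akt and is induced by the stress factor ATF4, from 2.29, 0.936 and 1.38 RPM to 14.1, 18.6 and 16.3 RPM (2.80, adjusted p = 1.3e-05). Them4, which encodes another protein that binds Akt, rose by 0.96 (adjusted p = 0.0020), from 14.0, 18 and 17.7 RPM to 39.5, 34.2 and 26.5 RPM. Pik3ip1, a transmembrane inhibitor of class I PI3K, fell from 55.9, 44.4 and 44.5 RPM to 21, 20.3 and 23.2 RPM (-1.13, adjusted p = 0.00018).

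The FoxO factors activate genes of stress resistance, cell cycle arrest and protein breakdown when they are in the nucleus, and 15 such genes had been listed, of which 14 were tested in 2MUT and 13 with 2-HG. In 2MUT 4 rose and 3 fell (28.6% and 21.4%, beside 16.5% and 17.3% of all genes), with a median log2 fold change of 0.084. With 2-HG 1 rose and 7 fell, or 53.8% that fell, with a median of -0.365, beside 16.7% of all genes and a median of -0.021. The list was chosen with earlier results of these data known, so the count stands as a description.

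In 2MUT the genes of this list that rose were Klf2, a transcription factor of quiescent cells (1.13, adjusted p = 0.00023), Sod2, the superoxide dismutase of mitochondria (1.04, adjusted p = 1.2e-05), Pink1, a kinase of mitochondrial quality control (0.66, adjusted p = 0.0012), and Bcl2l11, which encodes the pro-apoptotic protein Bim (0.44, adjusted p = 0.042). Sod2 went from 560, 623 and 554 RPM in Control to 1150, 1280 and 1140 RPM in 2MUT, and Klf2 from 11.2, 13.2 and 12.2 RPM to 25.3, 30.3 and 28.3 RPM. The groups did not overlap in either gene, and the lowest 2MUT library of Sod2 was far above the highest Control library. The genes that fell were Gadd45a, a DNA damage response gene (-0.76, adjusted p = 0.00015), the repressor Bcl6 (-0.60, adjusted p = 0.010) and the autophagy gene Gabarapl1 (-0.27, adjusted p = 0.042). The call of Bcl2l11 was lost without 2MUT replicate 1 or 2 or Control replicate 2 or 3 (adjusted p = 0.079 to 0.16), and that of Gabarapl1 without any library other than Control replicate 2 (adjusted p = 0.062 to 0.13). The genes of this list outside the 3 largest rises and falls of a comparison were named after their values were seen.

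With 2-HG most genes of this list that passed the test fell. Fbxo32, a ubiquitin ligase of muscle atrophy, fell from 48.8, 54.8 and 47.5 RPM to 25.7, 11.8 and 18.9 RPM (-1.43, adjusted p = 0.0012). Txnip, an inhibitor of glucose uptake and thioredoxin, fell from 235, 203 and 156 RPM to 59.3, 86.8 and 98 RPM (-1.28, adjusted p = 0.0011). Both genes stood apart between the groups, as did Pink1 (-0.92, adjusted p = 0.00015), Sod2 (-0.59, adjusted p = 0.0016) and Bcl2l11 (-0.58, adjusted p = 0.0087). Cited2, a transcriptional coregulator, fell by 0.50 (adjusted p = 0.018, and 0.066 and 0.065 without 2-HG(-) replicate 1 or 3) and Gabarapl1 by 0.36 (adjusted p = 0.016, and 0.077 without 2-HG(-) replicate 3 and 0.054 without 2-HG(+) replicate 3). Gadd45a, which ATF4 also induces, was the exception that rose, from 114, 124 and 99.9 RPM to 315, 289 and 274 RPM (1.37, adjusted p = 2.1e-05). By the test of the difference, Sod2 (1.64, adjusted p = 6.5e-07), Pink1 (1.58, adjusted p = 2.4e-06), Bcl2l11 (1.01, adjusted p = 0.0012), Fbxo32 (1.48, adjusted p = 0.0015), Txnip (1.07, adjusted p = 0.0046) and Klf2 (1.00, adjusted p = 0.0020) lay higher in 2MUT than with 2-HG, and Gadd45a (-2.13, adjusted p = 1.8e-07) and Bcl6 (-0.60, adjusted p = 0.033) lay lower. The difference of Bcl6 was lost without any of 7 libraries, namely Control replicates 1 and 3, 2MUT replicates 1 and 3, 2-HG(-) replicate 2 and 2-HG(+) replicates 2 and 3 (adjusted p = 0.050 to 0.076).

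**Figure D5:**
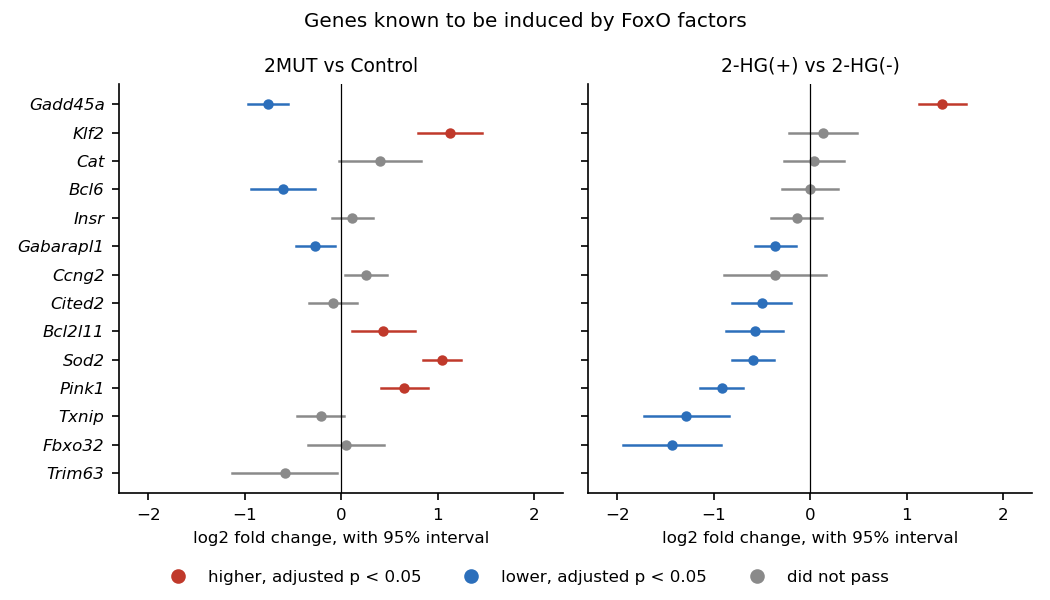
The log2 fold change and 95% interval of each tested gene of the list of genes known to be induced by FoxO factors is drawn for both comparisons, in the order of the values with 2-HG, with those that rose in red, those that fell in blue and those that did not pass in grey. Sod2, Pink1 and Bcl2l11 are to the right of 0 in 2MUT and to the left of 0 with 2-HG, and Gadd45a shows the opposite.

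Levels were not alike in the 2 tables for all components, although Control and 2-HG(-) are both MEF cells without added 2-HG or mutant IDH2. Of the 38 components in both tables, 7 had a mean at least 5 times higher in the table with 2-HG and 2 had one at least 5 times lower. Akt2 had a mean of 0.431 RPM over the 6 libraries with Control and 2MUT and 30.6 RPM over those with 2-HG, Gsk3b 9.24 and 131 RPM, Irs1 10.8 and 110 RPM, and Pdpk1 4.29 and 48.2 RPM. Irs2 was the reverse, with 55.7 and 5.64 RPM, as was Rragd, with 15.7 and 0.869 RPM. The tables list different entries and were normalized apart, so these values are set side by side without a test, and what sets them apart was not tested.

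Of the components, 5 in the table with mutant IDH2 and 2 in the table with 2-HG were too low to test. In the former these were Akt2, Pik3r4, Pik3r3 (0 to 0.155 RPM, 0 or 1 read a library), the phosphatase gene Inpp4b (0.137 to 0.439 RPM) and the haematopoietic phosphatase gene Inpp5d (0 to 0.155 RPM). With 2-HG these were Inpp5d (0.054 to 0.529 RPM) and Rragd, which was at 0.762, 0.468 and 0.360 RPM in 2-HG(-) and 1.06, 1.32 and 1.24 RPM in 2-HG(+), with 6 to 22 reads a library. Without the filter on low values Akt2 passed in 2MUT (-0.47, adjusted p = 0.048, from 1 to 6 reads) and Rragd with 2-HG (0.54, adjusted p = 0.016). Pik3r3 was not analysed in the table with 2-HG. The related gene Inppl1, a phosphatase of PIP3, was measured well but varied between libraries (0.31, interval -0.07 to 0.69, in 2MUT and 0.04, interval -0.38 to 0.47, with 2-HG), and it passed in 2MUT without Control replicate 3 (0.53, adjusted p = 0.0039).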

How the data were processed

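The data are 12 Ion AmpliSeq RNA libraries of MEF cells, 3 for each of 4 labelled groups. Columns that match no sample numbered 0. The authors aligned the reads with TMAP to the AmpliSeq mouse transcriptome reference, whose genome build is not given in the sources used here, used the AmpliSeqRNA plug-in for counting and deposited RPM in 1 table for each experiment. The RPM of each library summed to 1000000 within rounding, and 100% of the values came out as whole reads within 0.05 reads, which gave the depths stated above and the reads for the count tests. AmpliSeq counts the product of a primer pair for each gene, so RPM are not corrected for length and are compared only within a gene.

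Tests were run within each table in R 4.3.3 with limma 3.58.1 (trend fit) after taking log2(RPM + 1), for genes whose mean over the 6 libraries reached 1 RPM, and adjusted over all genes tested by Benjamini-Hochberg with a threshold of 0.05. Fold changes are on the log2(RPM + 1) scale, which understates the change of low genes. The difference between the comparisons was tested as the contrast of the changes over 12 libraries, with the spread of each gene pooled over the 4 groups. Intervals are 95% intervals of that fit. The tests were checked on simulated data. Named were the 39 components, with each library's value where a call was made, and the 3 largest rises and 3 largest falls among the listed genes of each comparison. The components, lists and tests were chosen with earlier results of these data known. Alternatives were another added value, another filter or none, 3 scalings, no trend, an unmoderated test, edgeR 4.0.16 and DESeq2 1.42.0 on the recovered reads, a block on the replicate number, and omission of every library singly. Where this left a group with 2 libraries, the spread was pooled over the groups. Promoter bases come from RefSeq on GRCm38.p6, with windows for 34 of the 39 components, and exon overlaps from GENCODE M21 on GRCm38. Of the 15 components called in either comparison, 5 share exon bases with another annotated gene, among them Akt1s1 on the same strand with Mir707 and Deptor, Foxo1, Irs1 and Mlst8 on the opposite strand, and whether the counting used strand is not given in the sources used here. Plots were drawn with matplotlib 3.10.9.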

Additional observations from a re-analysis of the deposited data

Results flagged for a closer look

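The change in 2MUT differed from the change with 2-HG, by the limma test of the difference itself, in 13 components. The change in 2MUT minus the change with 2-HG, on the log2 scale, was 0.572 for Pik3ca, 1.084 for Pik3r1, 0.808 for Pik3c3, -0.42 for Akt1, 0.556 for Mtor, 0.674 for Akt1s1, 2.011 for Deptor, -1.554 for Eif4ebp1, 0.918 for Irs1, 0.971 for Irs2, 1.235 for Foxo1, 1.019 for Foxo3 and 0.754 for Foxo4. The 2 experiments also differed in their vector, selection, treatment, length of exposure, depth and table. None of these can be told apart from the mutant and the metabolite in this difference.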

How the results depend on the processing

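No called component changed direction under any of the alternatives run. Of the called components, the call held under all 18 alternatives in 2 of 7 in 2MUT (Deptor, Pik3c3) and in 3 of 12 with 2-HG (Eif4ebp1, Irs1, Foxo4). In 2MUT the 7 components that rose became 3 with the unmoderated test and 2 to 7 when a library was left out, with 2 without 2MUT replicate 3. The 0 that fell became 1 with DESeq2 (Pik3r2), 1 without the filter (Akt2) and 0 to 1 when a library was left out. The median of 0.207 ranged from 0.165 to 0.215 when a library was left out, and that of -0.133 with 2-HG from -0.188 to -0.082. The 13 components that differed between the comparisons became 10 to 15 when a library was left out and 11 to 16 under the other settings. With 2-HG the 4 that rose became 2 with the unmoderated test and 2 to 4 without a library, and the 8 that fell became 3 and 5 to 9. Of the listed genes in 2MUT, the 18 that rose became 6 with the unmoderated test and 10 to 17 without a library, and the 12 that fell became 5 and 6 to 10. The cause was not tested. The labels do not say whether replicate numbers pair the samples, and 3 libraries a group cannot settle it. Deviations of same-numbered libraries correlated at 0.0293 to 0.0708 in 2MUT and Control and at -0.457 to 0.0572 in 2-HG(+) and 2-HG(-). Those of libraries with unlike numbers correlated at -0.138 to 0.0888 and at -0.414 to 0.48. Over all genes, a replicate block gave 1911 higher and 1987 lower in 2MUT, beside 1826 and 1915 without it. With 2-HG it gave 1217 and 1286, beside 1668 and 1737. With the number as a replicate block, 5 components rose and 0 fell in 2MUT, 3 rose and 6 fell with 2-HG, and 11 differed between the comparisons. Akt2 in 2MUT, with 1 to 6 reads a library, was called only without the filter, and its value rests on those few reads. Of the calls named above, those lost under the block were Pik3r1 (adjusted p = 0.057), Mlst8 (0.053) and Prr5 (0.055) in 2MUT, Pik3ca (0.14), Pik3cb (0.12), Akt1s1 (0.075) and Gabarapl1 (0.067) with 2-HG, and the differences of Irs2 (0.050), Mtor (0.054) and Bcl6 (0.073).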

Other observations

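The genes given here were picked from the lists after their values were seen, with the limma test and its Benjamini-Hochberg adjusted p. Trib2, a pseudokinase related to Trib3, rose in 2MUT from 55.9, 69.4 and 64.4 RPM to 122, 107 and 87.9 RPM (log2 fold change 0.72, adjusted p = 0.0022). With 2-HG it fell from 21.8, 13.8 and 19.3 RPM to 6.68, 9.32 and 7.91 RPM (-1.09, adjusted p = 0.0018), the direction opposite to that of Trib3, and its changes differed by 1.82 (adjusted p = 6.8e-05). Flcn, which encodes folliculin, a regulator of the Rag GTPases, fell in both comparisons. It went from 167, 166 and 148 RPM to 96.7, 109 and 103 RPM in 2MUT (-0.64, adjusted p = 0.00077) and from 43.3, 54.9 and 48.5 RPM to 31.1, 28.6 and 29.0 RPM with 2-HG (-0.70, adjusted p = 0.0017). Its changes did not differ by the test (difference 0.07, SE 0.15). Ddit4, which encodes the stress-induced inhibitor REDD1, rose with 2-HG (0.71, adjusted p = 0.0091) and had a value of -0.18 in 2MUT (adjusted p = 0.25, and called lower at 0.044 without Control replicate 3, with values of -0.29 to -0.08 over the alternatives), a difference of -0.89 (adjusted p = 0.0056).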
